A study of Rattus norvegicus with 24 samples.

Results

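The genes described here encode the subunits of the proteasome and the proteins that assemble, activate or inhibit it, as measured in rat liver. They were chosen by name: rows of the gene table whose symbol starts with Psma, Psmb, Psmc, Psmd, Psme or Psmf followed by a number, leaving out the immune subunits Psmb8, Psmb9 and Psmb10. Of the 30958 rows, 41 carried such a name, and 39 of these reached at least 0.5 FPKM (fragments per kilobase of transcript, scaled to the mapped fragments of the library) in 8 or more of the 24 libraries. Each of the 39 was in fact above 0.5 FPKM in every library, so none passed through a single group. The 2 below the minimum were Psma8, the testis form of an alpha ring subunit, with a highest value of 0.167 FPKM, and Psmb11, a thymus form of a beta ring subunit, with 0.398 FPKM. Psmc3ip met the rule through its symbol alone, since it encodes a partner protein of Psmc3 known from meiotic recombination and not a subunit, which left 38 proteasome genes. They comprised 7 genes of the alpha ring and 7 of the beta ring of the core, 9 of the base, 8 of the lid, 3 chaperones of base assembly, and 4 activators or inhibitors. Psme3 was not analysed here.

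The study asked what Lactobacillus reuteri, a gut bacterium given as a probiotic, does in female rats kept in constant darkness, a model of polycystic ovary syndrome-like disease with abnormal lipids. Livers came from 24 female Sprague-Dawley rats of 14 weeks, 8 in each of 3 groups, and each was sequenced as bulk RNA of the whole tissue. DL.reuteri rats spent 8 weeks in constant darkness and received 100 mg of L. reuteri a day by gavage. Darkness rats, labelled Dark in the plots, spent the same 8 weeks in darkness and received saline. Control rats lived with 12 hours of light a day and received saline. No rats received L. reuteri under the normal light cycle, so an effect of the bacterium outside darkness cannot be seen in this design. Rats shared cages, the cage of each rat was not given in the labels, and tissue was taken after a fast. The whole organ was sequenced, so fewer cells of a type and less RNA per cell cannot be told apart.

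The proteasome is the main protease of the cytosol and nucleus and degrades proteins that carry ubiquitin chains. Its core is a barrel of stacked alpha and beta rings, and the beta subunits Psmb5, Psmb6 and Psmb7 hold the protease sites. A cap on the end of the barrel, built of a base with an ATPase ring and a lid, binds the chain, unfolds the substrate and releases ubiquitin. In mammalian cells, the transcription factors Nfe2l1 and Nfe2l2 bind antioxidant response elements (ARE) in front of proteasome genes, Nfe2l1 in particular when proteasome activity is short. The liver relies on the proteasome for turnover of short-lived regulators, among them enzymes and receptors of sterol metabolism.

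Promoters of 4 members are printed to show the element that proteasome genes are known to share and to set genes with and without it side by side. Psmb5, the chymotrypsin-like protease of the core, and Psmb2, a beta ring subunit without protease activity, carried it. So did Psmd1, a scaffold of the base, while Psmd11, a lid subunit whose yeast relative helps to hold the lid together, did not. Psmd1 and Psmd11 were also among the 4 members with the smallest p-values on the higher side between DL.reuteri and darkness rats. The windows are from RefSeq on the GRCr8 assembly, run 5′ to 3′ on the strand of the gene and reach from 250 bases before the annotated start to 50 after it. Capitals mark matches to the ARE core, TGACNNNGC or TGAGNNNGC, on either strand. Psmb5 lies at chr15:32047330-32047629 on the minus strand, and Psmb2 at chr5:144254808-144255107, Psmd1 at chr9:94157721-94158020 and Psmd11 at chr10:65932093-65932392 on the plus strand.
Psmb5: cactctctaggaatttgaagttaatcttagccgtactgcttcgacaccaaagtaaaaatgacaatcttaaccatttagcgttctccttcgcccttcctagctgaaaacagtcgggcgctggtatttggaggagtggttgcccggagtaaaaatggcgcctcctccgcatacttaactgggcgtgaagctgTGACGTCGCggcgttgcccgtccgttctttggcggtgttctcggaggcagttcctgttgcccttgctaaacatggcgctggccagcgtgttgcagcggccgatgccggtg
Psmb2: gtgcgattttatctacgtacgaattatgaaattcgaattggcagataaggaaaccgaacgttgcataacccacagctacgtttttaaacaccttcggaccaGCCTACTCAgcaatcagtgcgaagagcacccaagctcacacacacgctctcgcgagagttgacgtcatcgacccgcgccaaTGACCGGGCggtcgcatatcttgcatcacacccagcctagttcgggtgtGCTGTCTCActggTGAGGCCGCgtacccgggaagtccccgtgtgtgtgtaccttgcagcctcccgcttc
Psmd1: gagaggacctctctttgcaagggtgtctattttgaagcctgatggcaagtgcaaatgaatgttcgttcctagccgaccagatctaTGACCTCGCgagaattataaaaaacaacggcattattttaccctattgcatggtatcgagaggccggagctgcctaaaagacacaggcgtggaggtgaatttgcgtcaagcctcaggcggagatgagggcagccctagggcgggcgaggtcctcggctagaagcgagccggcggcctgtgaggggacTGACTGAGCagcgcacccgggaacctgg
Psmd11: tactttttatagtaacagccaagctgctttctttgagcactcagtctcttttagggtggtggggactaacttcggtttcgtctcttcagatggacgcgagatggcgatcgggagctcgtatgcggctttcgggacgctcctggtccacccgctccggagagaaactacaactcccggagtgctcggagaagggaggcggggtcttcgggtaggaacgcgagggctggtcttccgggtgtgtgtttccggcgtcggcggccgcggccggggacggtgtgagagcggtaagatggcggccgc

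RefSeq held a promoter for 35 of the 39 genes, and Psma7, Psmd6, Psmd12 and Psmd14 had none in the table used. An ARE core stood in 16 of the 35 windows (45.7%), against 27.1% of the 27457 promoters of the same length over the whole genome. By class, it stood in 5 of 7 beta ring promoters (71.4%), 2 of 6 alpha ring promoters, 3 of 9 base promoters and 2 of 5 lid promoters. Psmb2 had 4 matches, Psmd1 2, and Psmb5 had a single match whose first base was 60 bases before the start. The CCAAT box, a common promoter element searched as CCAAT on both strands, stood in 18 of the 35 (51.4%), against 37.7% of all promoters. Matches to both motifs can share bases and a window can hold both. These are matches of letters in a fixed window and no measure of binding.

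The library DL.reuteri 3 stood apart from the others. In it, genes of the mitochondrial genome took 85.5% of the summed FPKM, against 19.0% to 51.1% in the other DL.reuteri rats, 12.5% to 60.0% in darkness rats and 21.2% to 52.9% in control rats. The 39 genes summed to 476 FPKM in that library and to between 1540 and 2950 FPKM in the others. Their share of the FPKM outside the mitochondrial genome was also lowest there, at 0.332%, against 0.435% to 0.595% elsewhere. Of the 38 proteasome genes, 37 were lower in DL.reuteri 3 than in any other library, the exception being Psme4. Relative to the median of the other DL.reuteri rats, this library held 7.49% to 26.1% of each core gene, 13.4% to 48.5% of each base gene and 9.09% to 42.5% of each lid gene. Hepatocyte markers, of which 7 of 7 were measured, averaged 8.675 on the log2(FPKM + 1) scale there and 11.07 to 12.222 in the other libraries, so every other library had high liver markers. Comparisons that involve DL.reuteri rats are therefore given with and without DL.reuteri 3. Depth read from the steps between the lowest values differed between 0.824 and 1.6 times that of Control 1.

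The core genes were among the most abundant of the complex. Within the alpha ring, Psma7 was highest, with 25.3, 131 and 170 FPKM (lowest, median and highest of 8) in DL.reuteri rats, 108, 138 and 197 in darkness livers and 103, 142 and 165 in control livers. Psma3 was lowest of that ring, with a median of 23.5 FPKM in DL.reuteri livers, 20.4 in darkness livers and 19.9 in control livers. The group ranges overlapped for both genes. In the beta ring, Psmb4, which helps the rings to close during assembly, was highest, with medians of 155 FPKM in DL.reuteri livers, 143 in darkness livers and 150 in control livers. Psmb6, the caspase-like protease, was lowest of the beta ring. It had 4.57, 45.8 and 54.7 FPKM in DL.reuteri livers, 25.0, 40.2 and 64.6 in darkness livers and 28.7, 43.5 and 55.7 in control livers. The 3 protease subunits thus lay at the lower end of the ring: Psmb5 had 8.76, 75.8 and 82.5 FPKM in DL.reuteri livers, 50.8, 80.4 and 134 in darkness livers and 51.9, 86.3 and 113 in control livers. Psmb7, the trypsin-like protease, had 5.68, 53.6 and 61.5 FPKM in DL.reuteri livers, 34.6, 54.9 and 74.1 in darkness livers and 43.0, 53.5 and 75.3 in control livers. The ranges of the 3 groups overlapped for all 3 protease genes, and DL.reuteri 3 lay far below the rest for each.

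In each of the 24 livers the median of base and lid genes lay below that of core genes, while single genes crossed, such as Psma3 of the alpha ring. Medians of the 9 base genes ran from 23.9 to 69.4 FPKM in DL.reuteri livers, from 15.8 to 55.9 in darkness livers and from 17.8 to 61.2 in control livers. Psmc3, an ATPase of the base ring, was highest by mean and Psmd1, the scaffold, lowest. Medians of the 8 lid genes ran from 16.3 to 55.5 FPKM in DL.reuteri livers, from 8.82 to 52.7 in darkness livers and from 10.2 to 51.4 in control livers. By mean over all libraries, Psmd8 was the highest lid gene and Psmd11 the lowest. Psmd14, the deubiquitinase that removes the ubiquitin chain at the lid, varied most between rats of a group. It had 1.5, 16.4 and 31.2 FPKM in DL.reuteri livers, 2.59, 8.82 and 18.4 in darkness livers and 4.46, 11.1 and 30.2 in control livers, a coefficient of variation of 48.9% in DL.reuteri rats without DL.reuteri 3, 60.5% in darkness rats and 65.2% in control rats. Psma2 had 20.2% in DL.reuteri rats without DL.reuteri 3, 11% in darkness rats and 10.6% in control rats.

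The chaperones of base assembly had low levels as a class. Psmd9 was highest among them and Psmd10, also known as gankyrin, lowest, with medians of 3.39 FPKM in DL.reuteri livers, 3.38 in darkness livers and 3.57 in control livers. Psme1, a subunit of the interferon-induced activator, was the most abundant gene of the whole set. It had 49.2, 162 and 192 FPKM in DL.reuteri livers, 147, 169 and 248 in darkness livers and 140, 192 and 208 in control livers. Psme2, its partner in the same ring, was well below it, and Psme4, a nuclear activator, was lowest of the 4, with medians of 19.8 FPKM in DL.reuteri livers, 15.9 in darkness livers and 16.2 in control livers. RefSeq lists pseudogene or like-named copies for 17 of the 39 genes, so levels of these genes may include or lose reads shared with a copy. Psmb3 had 10 copies, Psma6 had 5, and Psma7, Psmb6, Psmc4, Psme1 and Psme2 had 3 each.

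**Figure D1:**
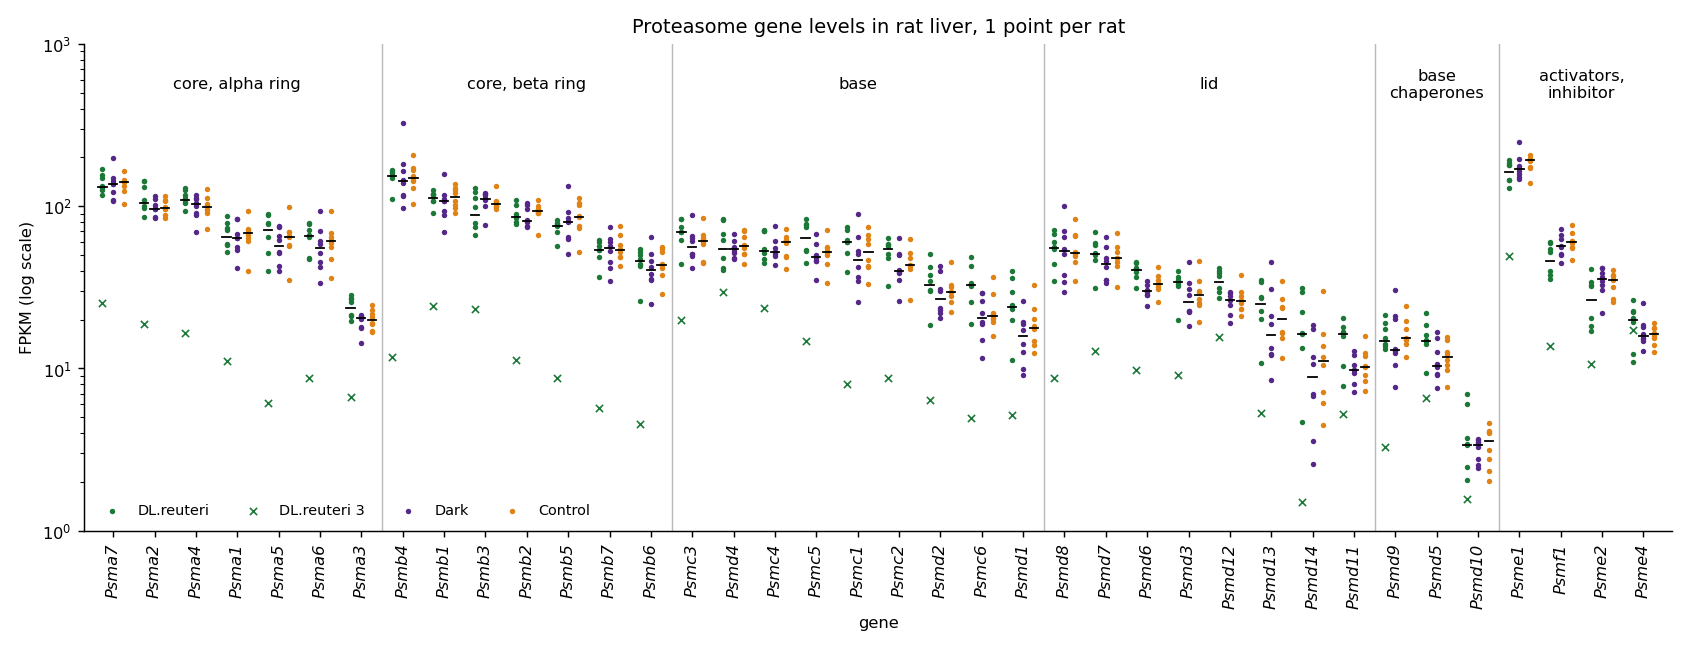
FPKM of the 38 proteasome genes on a log axis, 1 point per rat, in the order DL.reuteri, Dark and Control for each gene, with a line at the median of 8 and a cross for DL.reuteri 3. The crosses lie below all other points for 37 of the 38 genes, and most core genes lie above lid genes, from a highest median of 155 FPKM for Psmb4 in DL.reuteri livers to medians near 10 FPKM for Psmd11 in darkness and control rats.

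Between DL.reuteri and darkness rats, the question was what the bacterium changed in the dark. No proteasome gene passed the test over all 24 libraries. At an adjusted p under 0.05 (limma on log2(FPKM + 1), Benjamini-Hochberg over 12151 genes), 0 of 39 were called, and 10 of all genes (0.0823%) were. At an unadjusted p under 0.05, 0 of 39 were higher, where 12% of all genes were, and 2 were lower, where 4.89% of all genes were. The median difference was -0.05 over the 39 genes and 0.07 over all genes. By class, with no test of the differences between classes, the median was -0.37 for the beta ring, -0.15 for the alpha ring, -0.01 for the base, 0.17 for the lid and -0.39 for activators and inhibitor. The direction of the set depended on scaling: its median was 0.07 with FPKM rescaled outside the mitochondrial genome, with 3 genes called higher (852 of all genes, whose median was then 0.175), and -0.33 with a library term taken from Ballgown, with 10 called lower (5.74% of all genes).

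The 2 genes on the lower side at an unadjusted p under 0.05 by limma were Psme2 and Psmf1. Such a count is near the share over all genes (4.89%). Both are among the 4 activators and inhibitor, of which Psme4 went the other way, at 0.12. Psme2 had 10.6, 26.5 and 40.9 FPKM in DL.reuteri livers, 21.9, 35.6 and 41.7 in darkness livers and 25.8, 35.1 and 40.7 in control livers. Its difference was -0.50 ± 0.21 (log2, SE) between DL.reuteri and darkness rats, at an unadjusted p of 0.026 and an adjusted p of 0.229 by limma. Psmf1, which binds the core and inhibits it in vitro, had 13.7, 46.0 and 60.2 FPKM in DL.reuteri livers, 44.8, 56.7 and 72.0 in darkness livers and 46.3, 60.0 and 76.5 in control livers. Its difference was -0.47 ± 0.22 at an adjusted p of 0.264 by limma. Without DL.reuteri 3, the differences were -0.34 ± 0.18 for Psme2 and -0.26 ± 0.14 for Psmf1, with unadjusted p of 0.0632 and 0.0714 by limma. The groups overlapped for both, and the low values came from 4 rats: DL.reuteri 3 and DL.reuteri 1, 2 and 8. In those last 3 rats Psme2 was at 18.3, 20.6 and 16.9 FPKM, against 32.4 to 40.9 FPKM in DL.reuteri 4 to 7, and Psme1 was at 145, 145 and 130 FPKM, against 179 to 192 FPKM. The same 3 had the lowest mitochondrial shares of the group, 20.1%, 19.0% and 19.0%, and Dark 6, at 16.6%, had the lowest median of this class among darkness rats, 5.017, against 5.387 to 5.799. The share and the class did not go together throughout: Dark 7, with the lowest share of all libraries, 12.5%, had a class median of 5.744, and Control 6, at 21.2%, had 5.432. The 6 T and NK cell markers averaged 1.167, 0.758 and 1.024 on the log2 scale in DL.reuteri 1, 2 and 8 and 1.421 to 1.503 in DL.reuteri 4 to 7. In DL.reuteri 3 they averaged 0.334. Markers and class did not go together throughout either. In darkness rats the markers averaged 0.822 to 1.266, with Dark 6, at 0.847, having the class median of 5.017. Dark 8, at 0.822, had a class median of 5.403, and Dark 3, at 1.045, had 5.799. The part of these shares and markers in the result was not tested.

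Of the next members by p on the lower side, Psmb3 had 23.3, 88.9 and 130 FPKM in DL.reuteri livers, 76.3, 111 and 120 in darkness livers and 96.6, 104 and 134 in control livers. Its ranges overlapped, and its difference was -0.43 ± 0.24 between DL.reuteri and darkness rats (limma, adjusted p = 0.382). Psme1 differed by -0.31 ± 0.21 (adjusted p = 0.501 by limma). Without DL.reuteri 3, Psmb3 differed by -0.18 ± 0.14 and Psme1 by -0.09 ± 0.13. The 3 protease subunits differed by -0.46 ± 0.32 for Psmb5, -0.26 ± 0.33 for Psmb6 and -0.37 ± 0.32 for Psmb7, none past the threshold (limma, adjusted p = 0.514, 0.75 and 0.604). These values depended on DL.reuteri 3, and without it they were -0.09, 0.12 and 0.00, with 95% intervals of -0.45 to 0.27, -0.26 to 0.49 and -0.31 to 0.32.

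On the higher side stood lid, base and chaperone genes. Psmd12, a lid subunit, had 15.7, 34.3 and 41.4 FPKM in DL.reuteri livers, 19.0, 26.5 and 29.4 in darkness livers and 21.0, 26 and 37.9 in control livers. Psmd11 had 5.21, 16.3 and 20.5 FPKM in DL.reuteri livers, 7.2, 9.81 and 12.9 in darkness livers and 7.31, 10.2 and 15.9 in control livers. Psmd5, a chaperone that holds base ATPases before the cap closes, had 6.54, 14.8 and 22.1 FPKM in DL.reuteri livers, 7.6, 10.4 and 16.7 in darkness livers and 7.68, 11.7 and 15.6 in control livers. Psmd1 had 5.13, 23.9 and 39.6 FPKM in DL.reuteri livers, 9.16, 15.8 and 26 in darkness livers and 12.4, 17.8 and 32.6 in control livers. Of the 8 DL.reuteri rats, 7 lay above the darkness median for Psmd12 and 6 for Psmd11, Psmd5 and Psmd1, while DL.reuteri 3 lay below every darkness rat for each. With all libraries, the differences were 0.30 ± 0.17, 0.36 ± 0.21, 0.29 ± 0.20 and 0.41 ± 0.30 for Psmd12, Psmd11, Psmd5 and Psmd1, with adjusted p between 0.394 and 0.534 by limma.

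**Figure D2:**
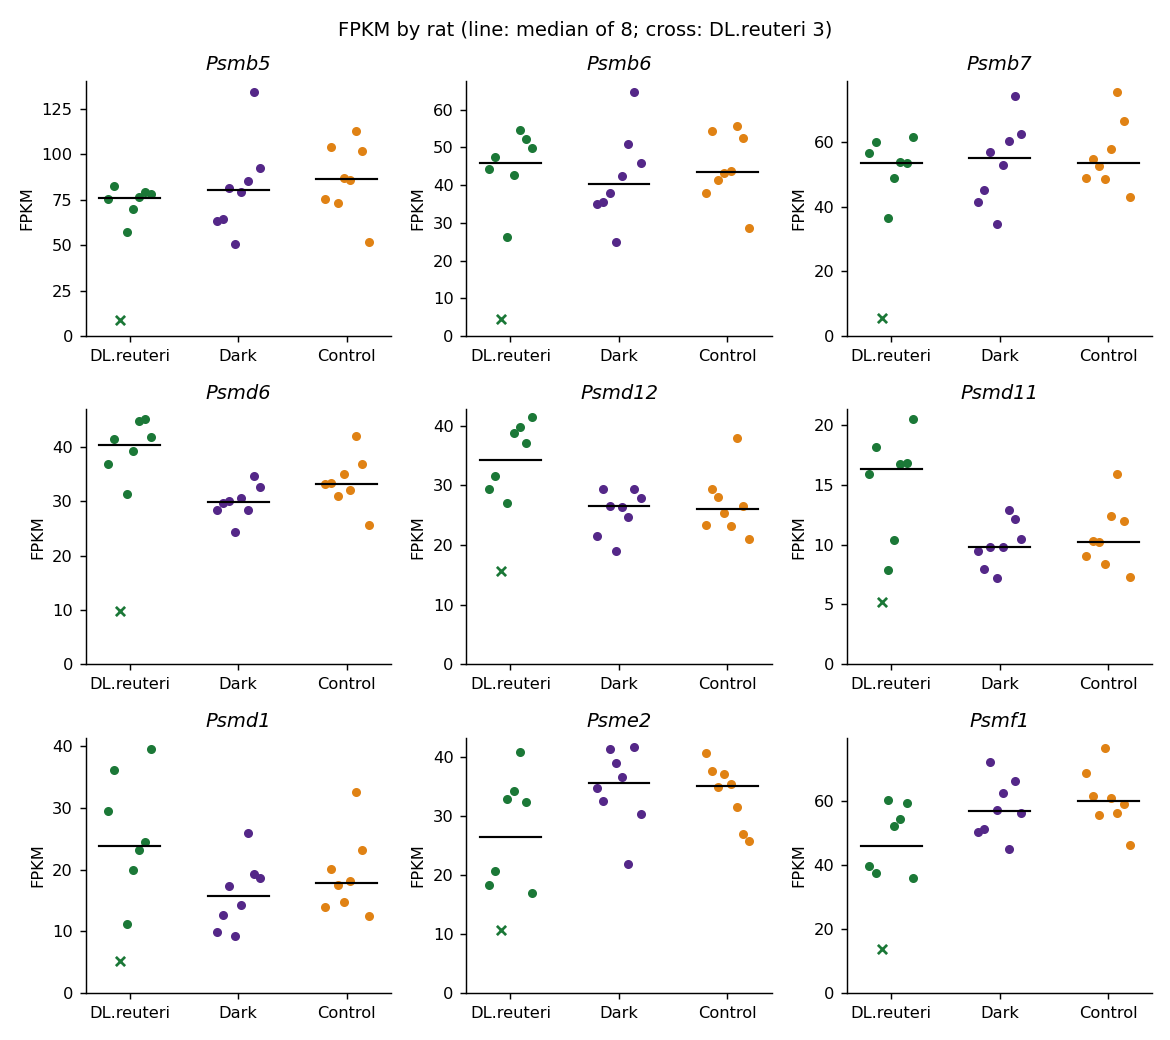
FPKM by rat for 9 genes in the order DL.reuteri, Dark and Control, with a line at the median of 8 and a cross for DL.reuteri 3. For Psmd6 and Psmd12, 7 of 8 DL.reuteri rats lie above the darkness median (29.8 and 26.5 FPKM), while for Psme2 and Psmf1 3 rats beside DL.reuteri 3 lie low.

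Without DL.reuteri 3, the comparison with darkness rats changed for the whole transcriptome, proteasome genes included. Psmd6 and Psmd12, both lid subunits, then passed the test and were higher in DL.reuteri rats. Psmd6 is named here after its values were seen. Psmd6 had 31.4, 41.5 and 45.1 FPKM in the 7 DL.reuteri rats, 24.4, 29.8 and 34.7 in darkness livers and 25.7, 33.2 and 42.0 in control livers. It rose by 0.41 ± 0.11, or 1.33-fold on the FPKM + 1 scale, against darkness rats (limma, adjusted p = 0.0202). Psmd12 rose by 0.43 ± 0.13, or 1.35-fold (limma, adjusted p = 0.0361). Its 7 values had a median of 37.0 FPKM and a minimum of 27.0, within the range of darkness rats. In all, 2 of 39 genes were called higher (8.81% of all genes were) and 0 lower (1.23% of all genes). At an unadjusted p under 0.05, 9 of 39 were higher, where 22.8% of all genes were, and 0 lower, where 3.94% were, and 34 of 39 lay above 0, where 71.4% of all genes did. The share of proteasome genes called was thus near that of the rest of the transcriptome, or below it. None of the 39 had ranges apart between the 7 DL.reuteri and the 8 darkness rats, which 1.13% of all genes did on the higher side and 0.115% on the lower.

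The other 7 at an unadjusted p under 0.05 were Psmc6 and Psmc5, ATPases of the base, Psmd1, Psmd11, Psmd5, Psmd14 and the alpha ring gene Psma3. Their differences ran from 0.32 for Psma3 to 0.95 for Psmd14, with adjusted p from 0.0507 for Psmc6 to 0.128 for Psmd14 by limma. No beta ring gene was among them. The median was 0.41 for the lid, 0.30 for the base, 0.22 for the alpha ring, 0.01 for the beta ring and -0.18 for activators and inhibitor, where all genes had 0.15. When FPKM were also rescaled to the sum outside the mitochondrial genome, 5 of 39 were called higher (6.47% of all genes), namely Psmd6, Psmc6, Psmd11, Psmd1 and Psmd12. Those 5 are lid and base genes, as are 17 of the 39, again with no test between classes.

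**Figure D3:**
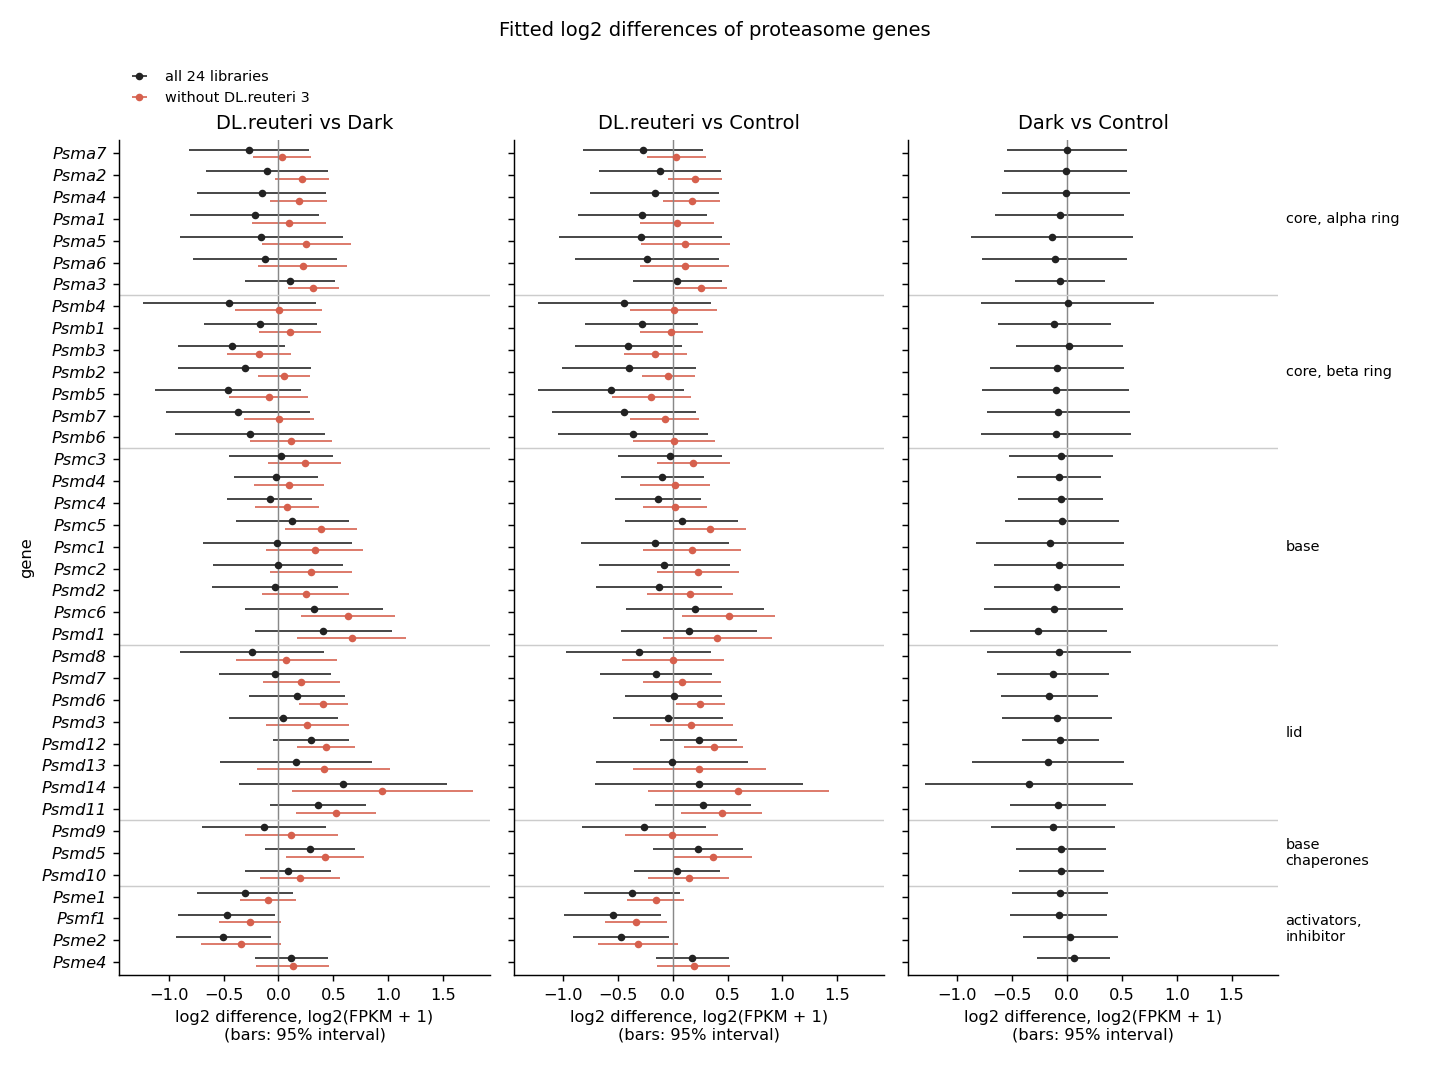
Fitted log2 differences on the log2(FPKM + 1) scale with 95% intervals for the 38 genes by class, over all 24 libraries (black) and without DL.reuteri 3 (red). In the first panel the red points lie to the right of the black ones, and lid genes reach 0.95 (Psmd14) while the beta ring median is 0.01.

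A measure within each liver set the cap against the core, on which a common scale factor has little effect except at low FPKM. It was chosen after the values were seen and is a description, with no test. The median log2(FPKM + 1) of the 17 base and lid genes minus that of the 14 core genes ran from -1.123 to -0.324 in DL.reuteri livers, with a median of -0.94. It ran from -1.573 to -0.872 in darkness livers, with a median of -1.27, and from -1.559 to -1.155 in control livers, with a median of -1.33. Base and lid genes were thus closest to core genes in DL.reuteri rats. All 8 DL.reuteri rats lay above all 8 control rats, by a margin of a few hundredths, and overlapped darkness rats through Dark 6 and Dark 7, at -0.872 and -1.104. DL.reuteri 3 was the highest of all, and the other 7 ran from -1.123 to -0.755. Medians of the alpha ring, beta ring, base and lid were lowest in DL.reuteri 3, at 3.281 to 3.625. The lid minus the beta ring ran from -1.824 to -0.315 in DL.reuteri livers, against -1.858 to -1.434 in darkness livers and -1.932 to -1.428 in control livers.

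Other properties moved with this difference in part of the libraries or genes. DL.reuteri 1, 2 and 8 and Dark 6, with mitochondrial shares of 16.6% to 20.1%, had values of -0.898 to -0.755. But Dark 7, at 12.5%, had -1.104 and Control 6, at 21.2%, had -1.177. DL.reuteri 3, with the highest share, 85.5%, had the highest value, -0.324. Over all genes without DL.reuteri 3, the difference between DL.reuteri and darkness rats grew with the genomic span of the gene, with a median of 0.05 over the 2515 shortest genes and 0.23 over the 2513 longest, and 82.7% of genes had a span. Core genes had a median span of 10704 bases and base and lid genes of 12278 bases. Among the 2515 shortest genes, the median was 0.02 for 6 core genes and 0.15 for 6 base and lid genes, and among the next 2512 it was 0.16 for 4 and 0.37 for 8. The 2513 after those held 3 core genes, with a median of 0.22, and 0 base and lid genes. Among the 2513 longest, 1 core gene was at 0.005 and 3 base and lid genes ran from 0.524 to 0.946. By level, the 3038 most abundant genes, which held 34 of the 39, had a median of 0.07, and those 34 had 0.16. The part of span, level and mitochondrial share in the difference was not tested beyond these values.

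**Figure D4:**
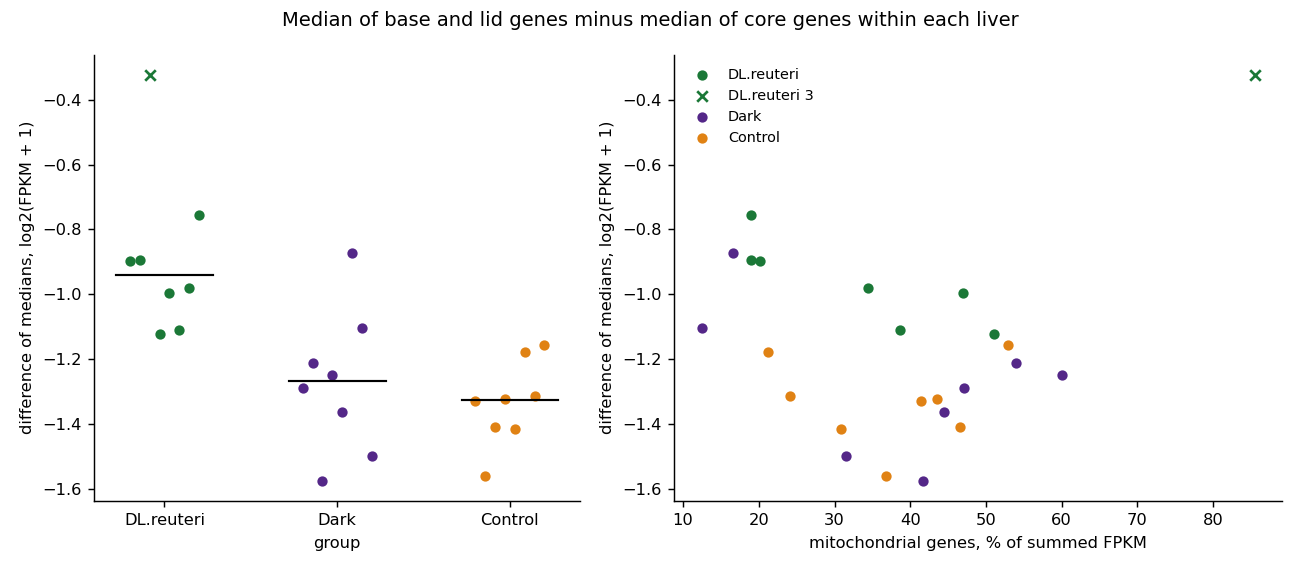
Left, the median of base and lid genes minus that of core genes on the log2(FPKM + 1) scale in each liver, by group in the order DL.reuteri, Dark and Control, with a line at the median and a cross for DL.reuteri 3. Right, the same value against the mitochondrial share of the library. DL.reuteri rats run from -1.123 to -0.324 and control rats from -1.559 to -1.155, with no overlap. Darkness rats run from -1.573 to -0.872 and overlap both. The measure was chosen after the values were seen.

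Between DL.reuteri and control rats, which differ in both light and bacterium, no proteasome gene passed the test. At an adjusted p under 0.05 by limma, 0 of 39 were called (0.14% of all genes were). At an unadjusted p under 0.05, 0 of 39 were higher (6.43% of all genes) and 2 were lower (6.81% of all genes). These were Psmf1, at -0.55 ± 0.22 (adjusted p = 0.289), and Psme2, at -0.47 ± 0.21 (adjusted p = 0.340 by limma). This comparison shares its DL.reuteri rats with the one above. Psmb5, Psmb6 and Psmb7 differed by -0.56 ± 0.32, -0.36 ± 0.33 and -0.45 ± 0.32 (limma, adjusted p = 0.469, 0.689 and 0.580), and by -0.19 ± 0.17, 0.02 ± 0.18 and -0.07 ± 0.15 without DL.reuteri 3. Psme1 differed by -0.37 ± 0.21, Psmd12 by 0.24 ± 0.17, Psmd11 by 0.28 ± 0.21 and Psmd5 by 0.23 ± 0.20, all with limma's adjusted p of 0.468 or more. Without DL.reuteri 3, Psme1 differed by -0.16 ± 0.13, Psme2 by -0.31 ± 0.18, Psmd12 by 0.37 ± 0.13, Psmd11 by 0.45 ± 0.18 and Psmd5 by 0.37 ± 0.17. In that setting 0 of 39 were called (2.07% of all genes), and at an unadjusted p under 0.05 8 were higher (14.1% of all genes) and 1 was lower (5.14% of all genes). The 8 were Psmc3ip, Psma3, Psmc5, Psmc6, Psmd5, Psmd6, Psmd11 and Psmd12, with differences from 0.25 for Psmd6 to 0.51 for Psmc6, and the lower gene was Psmf1, at -0.33 ± 0.14 (limma, adjusted p = 0.175). Class medians were then 0.25 for the lid, 0.19 for the base, 0.12 for the alpha ring, -0.04 for the beta ring and -0.23 for activators and inhibitor, beside 0.08 for all genes.

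Between darkness and control rats, the same animals as in the comparisons above, no proteasome gene passed either threshold. By limma, 0 of 39 were called at an adjusted p under 0.05, as were 0 of all genes (0%). At an unadjusted p under 0.05, 0 of 39 were higher (0.477% of all genes) and 0 lower (2.3% of all genes). The median was -0.07 over the 39 genes and -0.07 over all genes, and 34 of 39 were below 0, where 69.2% of all genes were, though the median of the 39 was 0.015 with FPKM rescaled by median ratios and 0.145 with the Ballgown term. Class medians lay between -0.11 for the lid and -0.02 for activators and inhibitor. The members farthest down by p were Psmd1 at -0.26 ± 0.30, Psmd14 at -0.35 ± 0.46, Psmd6 at -0.16 ± 0.21 and Psmd13, a lid subunit, at -0.17 ± 0.34. Their 95% intervals reached from -0.88, -1.30, -0.60 and -0.86 to 0.36, 0.60, 0.28 and 0.52, so differences anywhere inside these bounds remain possible. Psmb5, Psmb6 and Psmb7 differed by -0.10, -0.10 and -0.08, with SE of 0.32, 0.33 and 0.32. The members with positive values and the smallest p were Psme4 at 0.06 ± 0.16, Psme2 at 0.03 ± 0.21 and Psmb3 at 0.02 ± 0.24, beside Psmc3ip. The fit pools the spread of all groups, so DL.reuteri 3 enters the intervals and SE of this comparison although it is in neither group. Without that library, the median of the 39 stayed at -0.07. At an unadjusted p under 0.05 by limma, 0 of 39 were then higher (72 of all genes) and 0 lower (408 of all genes).

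Psmc3ip, the gene that is no subunit, had 1.1, 2.4 and 3.16 FPKM in DL.reuteri livers, 1.53, 2.51 and 3.86 in darkness livers and 0.681, 1.74 and 2.79 in control livers. It differed by 0.30 ± 0.17 between darkness and control rats (limma, adjusted p = 1) and by 0.25 ± 0.17 between DL.reuteri and control rats (limma, adjusted p = 0.546), with overlapping ranges.

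Genes around the proteasome were read from lists of its other parts, 37 genes in all. Between DL.reuteri and darkness rats, 0 passed the adjusted test over all libraries, while an unadjusted p under 0.05 was met by 3 on the higher side (12% of all genes) and 5 on the lower (4.89% of all genes). Psmb10, an immune form of a beta subunit induced by interferon, had 10.6, 41.3 and 54.0 FPKM in DL.reuteri livers, 44.9, 57.6 and 88.8 in darkness livers and 45.5, 61.6 and 70.3 in control livers, a difference of -0.79 from darkness rats (limma, adjusted p = 0.0936). Without DL.reuteri 3, 5 of the 37 passed, 3 higher (8.81% of all genes) and 2 lower (1.23% of all genes). The 4 described here are named after their values were seen. Ecpas, a scaffold that binds the cap, rose by 0.44, Usp14, a deubiquitinase of the cap, by 0.62 and Nfe2l2 by 0.30, while Psmb10 fell by 0.56 (limma, adjusted p from 0.01 to 0.0382). Nfe2l2 had 36.4, 42.1 and 47.1 FPKM in the 8 DL.reuteri rats, 29.9, 32.9 and 37.2 in darkness livers and 31.2, 35.1 and 39.8 in control livers, so DL.reuteri 3 did not stand apart for it.

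By list, over all libraries, the median between DL.reuteri and darkness rats was -0.64 for the 3 immune subunits and -0.30 for the 5 chaperones of core assembly. It was 0.14 for a list of 8 further subunits and partners of the cap, and 0.18 for the 6 shuttle factors. The 5 genes of the p97 unfoldase complex had 0.15 and the 6 genes of transcriptional control 0.12. Without DL.reuteri 3 the medians were -0.34, -0.08, 0.33, 0.27, 0.25 and 0.16 in the same sequence. The list medians of the immune subunits and core chaperones were below 0 in both settings, and that of the further subunits and partners of the cap was above it. Single genes crossed, such as Psmb8 at 0.02 without DL.reuteri 3. Over all libraries, 3 of the 8 cap genes were below 0, among them the subunits Sem1 at -0.17 and Adrm1 at -0.055. Between DL.reuteri and control rats, 0 of the 37 passed the adjusted test, and an unadjusted p under 0.05 was met by 1 on the higher side (6.43% of all genes) and 7 on the lower (6.81% of all genes), and by 4 on each side without DL.reuteri 3 (14.1% and 5.14% of all genes). Between darkness and control rats 0 of 37 passed, and Maff was at -0.60 and Faf2 at -0.15 (limma, adjusted p = 1 for each).

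Proteasome genes varied together from rat to rat. After removing group means, the median Pearson correlation over the 24 libraries was 0.85 between pairs of the 38 genes and 0.16 between pairs of all genes tested. It was 0.94 within the core, 0.90 within base and lid and 0.865 between both sets. The points share libraries and their mitochondrial share, and the values were lower in other settings: 0.67 without DL.reuteri 3, and 0.36 with FPKM also rescaled outside the mitochondrial genome, when pairs of all genes had 0.08. In that last setting, over 23 livers, the medians were 0.64 within base and lid, 0.41 within the core and 0.455 between them. Psmc1 with Psmd13 had 0.95, and Psmc6 with Psmd1 had 0.93, the closest pairs of the cap. Psme1, Psme2 and Psmf1 varied together: Psme1 with Psme2 had 0.94 and Psme2 with Psmf1 had 0.92, while Psme4 had 0.18 with Psme2, and Psmd1 had -0.72 with Psme1, -0.72 with Psmf1 and -0.71 with Psme2.

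The core as a whole did not hold together as a block in that setting, though the median within the beta ring was 0.61. Psmb2 and Psmb3 varied with Psme2, at 0.86 and 0.88, and Psmb3 had -0.67 with Psmd14. The 3 protease genes varied with genes of the cap: Psmb7 had 0.83 with Psmd1, Psmb6 had 0.87 with Psmc2 and Psmb5 had 0.83 with Psmc1. They also varied with each other, at 0.665 to 0.787, and Psmb5 had 0.85 with Psmb4 of the same ring. Psmd6 and Psmd12, the lid genes called above, had 0.79 with each other and sat apart from most of the lid, with medians of 0.28 and 0.39 against the other core, base and lid genes, where Psmd3 had 0.68. Psmc3ip had -0.12, and -0.25 with Psmc3. These are descriptions over shared libraries and carry no p-value.

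**Figure D5:**
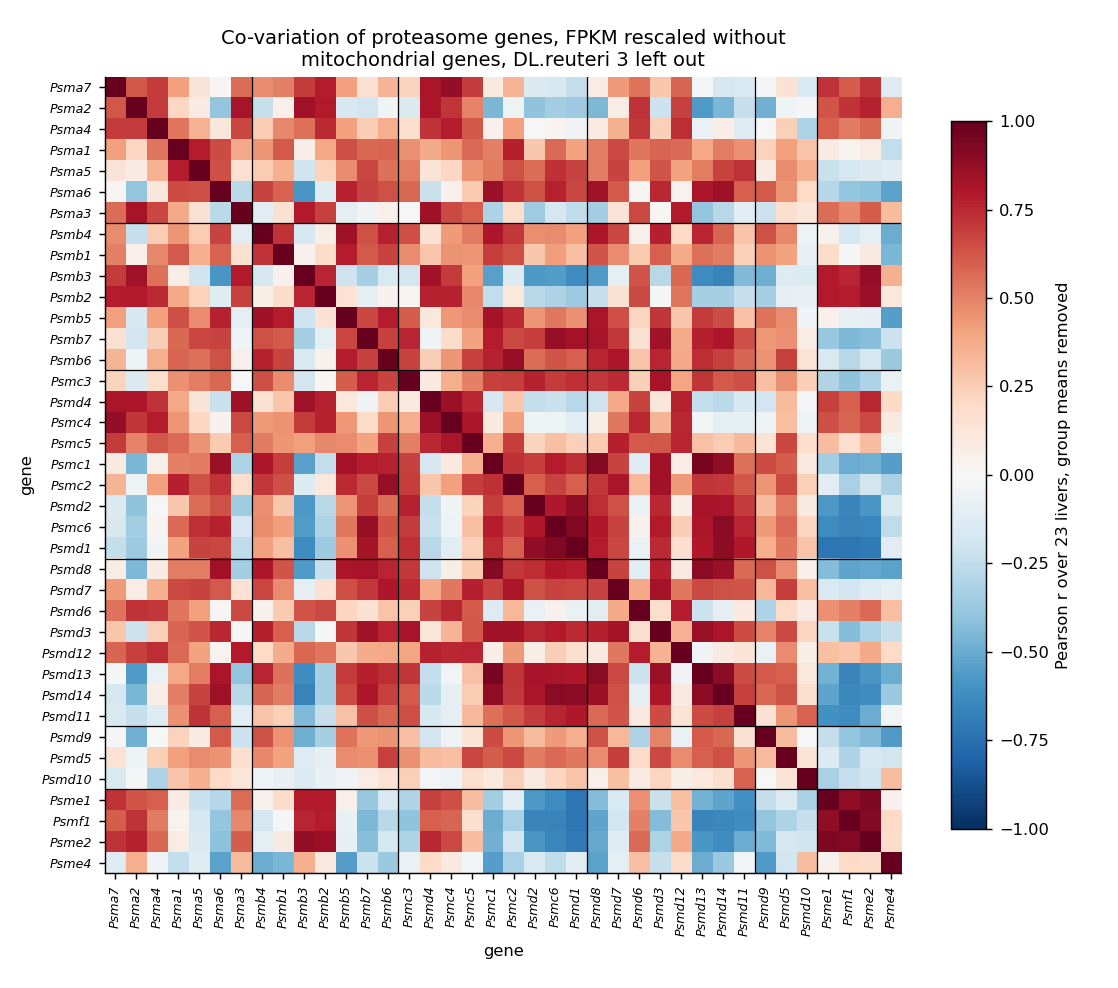
Pearson correlations between the 38 genes over 23 livers after rescaling to the FPKM outside the mitochondrial genome and removing group means, without DL.reuteri 3; both axes list genes by class, and red is positive. Most base and lid genes are red with each other and with Psmb5, Psmb6 and Psmb7, while Psme1, Psme2 and Psmf1 are red with Psmb2 and Psmb3 and blue (to -0.72) with Psmd1.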

How the data were processed

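RNA from 24 rat livers was sequenced, 8 per group, with groups taken from the sample titles. Per the study's methods, the authors trimmed reads with Seqtk, aligned them with HISAT2 (2.0.4 in the submitters' processing notes) to Rnor_6.0 and estimated FPKM with StringTie. The deposited values are FPKM per gene, which keep no read counts, so absolute depth is unknown and no count model was used. The authors' comparisons were not used.

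Values were analysed as log2(FPKM + 1), with genes of at least 0.5 FPKM in at least 8 libraries (12151 genes), in 1 limma fit of the 3 groups with a variance trend (limma 3.58.1, R 4.3.3), called at an adjusted p under 0.05 (Benjamini-Hochberg). Fold changes are on the FPKM + 1 scale and understate those of low genes. The fit was tested on simulated data with independent noise for each gene and no outlying library. That check does not cover a library such as DL.reuteri 3 or genes that vary together. Rats were treated as independent replicates, although they shared cages. The p-values set a group difference against the spread between rats, pooled over the 3 groups. Members, classes and lists were chosen with earlier results of these data known. Values by group were given for the 3 protease genes and, in each comparison, for up to 4 members with the smallest p in each direction, with up to 3 genes of the other lists (some of which are not reported here), and the highest and lowest member of each class by mean FPKM was named. The 40 other settings covered pseudocounts, filters, scalings, covariates, weights, a replicate block and libraries left out. Replicate numbers did not pair the rats. RefSeq names and promoters (GRCr8) were matched by symbol, with no coordinates taken from Rnor_6.0. No 2 libraries held identical values.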

Additional observations from a re-analysis of the deposited data

Results flagged for a closer look

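In 15 of 69 sets of 8 values, the highest or lowest library lay farther from its neighbour than Dixon's 95% limit for 8 samples allows, where chance gives about 5% of sets. DL.reuteri 3 accounted for 10 of them. It was lowest for Psmb5 (8.76 FPKM), Psmb7 (5.68 FPKM), Psmd6 (9.77 FPKM) and Psme1 (49.2 FPKM), and for the median log2(FPKM + 1) of the alpha ring (3.596), the beta ring (3.625), the base (3.281), the lid (3.31) and the base assembly chaperones (2.089). It was highest for base and lid minus core (-0.324). The other 5 were the lowest darkness rat for Psmb3 (76.3 FPKM), the highest darkness rat for Psme4 (25.4 FPKM), the highest control rat for Psmb3 (134 FPKM) and for Psmd14 (30.2 FPKM), and the lowest control rat for the beta ring median (6.067).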

How the results depend on the processing

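Between darkness and control rats, 0 of 39 genes were called under each of the 40 other settings. Between DL.reuteri and darkness rats, where the count over all libraries was 0, it was 1 lower with median ratios (291 of all genes lower), 3 higher with FPKM rescaled outside the mitochondrial genome (852 of all genes higher), 10 lower with the Ballgown library term (697), 3 higher with the mitochondrial share as covariate (789), 9 higher with array weights (1758) and 2 higher with libraries 2 and 3 of DL.reuteri and 8 of Control out (800). Leaving out 1 library at a time gave 0 to 2, the 2 without DL.reuteri 3, and 5 with that library out and the rescaling, a setting chosen after seeing the data. Between DL.reuteri and control rats it was 1 with the Ballgown term and 1 with array weights. The cause was not tested. Medians over the 39 genes changed sign between settings. Between DL.reuteri and darkness rats the median ran from -0.328 with the Ballgown term to 0.253 with array weights, and was 0.20 without DL.reuteri 3 and 0.02 without Dark 7. Between DL.reuteri and control rats it ran from -0.27 without Control 8 and DL.reuteri 2 to 0.147 without DL.reuteri 3, and between darkness and control rats from -0.144 in that first setting to 0.145 with the Ballgown term. The median correlation was 0.672 without DL.reuteri 3, 0.39 with the rescaling and 0.357 with both, against 0.849.

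Values of some named genes changed sign. Darkness against control rats: with median ratios Psmb7 was 0.011, with the Ballgown term Psmb5 was 0.20, Psmb6 0.23, Psmb7 0.25, Psmd6 0.049 and Psmd13 0.042, and leaving out Control 8 with DL.reuteri 2, whether DL.reuteri 3 stayed in or not, Psme2 was -0.02. Leaving out 1 library, Psme2 ran from -0.02 to 0.12, Psmb3 from -0.003 to 0.09, Psmb7 from -0.15 to 0.005 and Psme4 from -0.019 to 0.112. DL.reuteri against darkness rats: with array weights Psmb6 was 0.21 and Psmb7 0.016, with libraries 2 and 3 of DL.reuteri and 8 of Control out Psmb6 was 0.10, with the rescaling and without DL.reuteri 3 it was 0.078, and leaving out 1 library Psmb6 ran from -0.36 to 0.12 and Psmb7 from -0.46 to 0.005. DL.reuteri against control rats: Psmb6 was 0.04 with array weights, 0.008 with the rescaling and without DL.reuteri 3, and ran up to 0.015 when 1 library was left out.

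With the replicate number as block, 0 of 39 were called in each comparison, with medians of -0.07, -0.05 and -0.13. Same-numbered rats correlated over 0.1 in 12 of 24 pairs (r from -0.392 to 0.595), so the numbers name rats and do not pair them. FPKM give no counts, so the precision of single values is unknown.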
